A study of Homo sapiens with 2 samples.

Results

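The 7 genes described here, NEU1, SAT1, TUBB2A, SQSTM1, SERTAD1, CIRBP and HOXB2, were listed by symbol as genes that respond to HDAC inhibitors in K562 cells, and each symbol matched 1 of 57905 deposited gene lines. All 7 were among the 10312 genes with enough reads to be tested. They were picked on values of these same wells by no stated threshold, and which contrasts were used is not stated. Values under the pan-HDAC inhibitors are taken to have picked them, and probably those under the BET inhibitors. Values under the pan-HDAC compounds are therefore given as a description with no test, and nothing is read from the counts of calls under the BET inhibitors JQ1 and IBET_762. How far the name of the list held differed by gene. All pan-HDAC wells of SAT1 lay above, and all those of HOXB2 below, every DMSO well. NEU1 and TUBB2A lay above every DMSO well under Panobinostat and Quisinostat, but each had 1 Vorinostat well inside the DMSO range. CIRBP was higher under Panobinostat only. The wells of SQSTM1 and SERTAD1 overlapped those of DMSO under every pan-HDAC compound, and their fold changes there moved with the choice of control wells.

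K562 is a human cell line from a patient with chronic myeloid leukaemia and has erythroid traits. Cells in 96-well plates were kept for 6 h with 74 treatments, namely 73 compounds and ethanol (EtOH), or with DMSO, and their polyadenylated RNA was counted by MAC-seq, which barcodes each well and reads the 3′ ends of mRNAs from 1 pooled library per plate. The groups used are the pan-HDAC inhibitors Panobinostat, Quisinostat and Vorinostat (2 wells each), the isoform-directed HDAC inhibitors MC1568, NexturastatA, PCI34051, PCI_34051, RGFP966 and TMP269 (2 wells each), the BET inhibitors JQ1 (6 wells) and IBET_762 (4 wells), the BET degrader dBET1 (2 wells), 9 compounds that block transcription, 19 compounds against methylating or demethylating enzymes, 34 other treatments, and DMSO (24 wells). Classes follow a fixed table of compound names, and 10 of the 34 other treatments, such as CPI_360, GSK_LSD1_2HCl, GSK_J4_HCl, UNC0631 and MI-3, also act on methylating or demethylating enzymes or their complexes. Wells labelled RGF966 and Ricolintostat, names close to those of 2 isoform-directed inhibitors, were counted among the other treatments and are shown with the isoform-directed compounds. The labels PCI34051 and PCI_34051 may stand for 1 compound and are counted as 2 throughout. The sources used here give no doses, so values of different compounds stand side by side and are not compared for potency. Every treatment was a technical duplicate, 1 or more wells on each of 2 plates, so a p-value measures the spread between wells of 1 cell line and not between independent cultures.

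Histone deacetylases remove acetyl groups from histones and other proteins, and BET proteins bind acetylated histones and help RNA polymerase II to transcribe, so inhibitors of both families are used as probes of acetylation-dependent transcription in leukaemia cells. NEU1 encodes the lysosomal sialidase, SAT1 the acetyltransferase of the rate-limiting step of polyamine breakdown, and TUBB2A a beta-tubulin. SQSTM1 encodes p62, a receptor that carries ubiquitinated cargo into autophagosomes. SERTAD1 encodes a small regulator that acts with CDK4 and E2F factors, CIRBP an RNA-binding protein induced by mild cold, and HOXB2 a homeobox transcription factor of the HOXB cluster, part of which K562 cells express.

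SERTAD1 and CIRBP, with SQSTM1, were higher under JQ1. Their promoters are shown beside those of NEU1, SAT1 and TUBB2A, the 3 genes most raised of the 7 under each pan-HDAC compound. The promoters are given so that their make-up can be read beside the expression values. They are the 250 bases before the RefSeq start in GRCh38.p14, which is another build than that of the counts, written 5′ to 3′ on the gene's strand. Capitals mark matches on either strand to the GC box GGGCGG, the CCAAT box, the E box motif CACGTG, the TATA box motif TATAAA or the antioxidant response core TGANNNNGC, and neighbouring or overlapping matches run together.
NEU1 (chr6:31862822-31863071, minus strand): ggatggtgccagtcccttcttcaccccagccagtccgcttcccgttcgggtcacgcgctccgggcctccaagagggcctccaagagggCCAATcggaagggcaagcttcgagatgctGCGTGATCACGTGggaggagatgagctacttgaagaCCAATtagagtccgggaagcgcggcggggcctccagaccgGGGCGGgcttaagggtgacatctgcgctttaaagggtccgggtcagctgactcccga
SAT1 (chrX:23782923-23783172, plus strand): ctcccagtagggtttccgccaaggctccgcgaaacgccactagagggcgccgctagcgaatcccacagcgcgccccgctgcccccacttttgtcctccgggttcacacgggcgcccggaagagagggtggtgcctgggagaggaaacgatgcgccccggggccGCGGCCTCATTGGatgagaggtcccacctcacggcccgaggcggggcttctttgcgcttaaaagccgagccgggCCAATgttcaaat
TUBB2A (chr6:3157545-3157794, minus strand): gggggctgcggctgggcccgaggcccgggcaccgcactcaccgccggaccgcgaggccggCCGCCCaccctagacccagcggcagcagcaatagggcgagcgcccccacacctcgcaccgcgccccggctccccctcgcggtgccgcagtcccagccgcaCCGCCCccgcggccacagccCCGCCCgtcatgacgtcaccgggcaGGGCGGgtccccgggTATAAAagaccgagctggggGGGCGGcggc
SERTAD1 (chr19:40425993-40426242, minus strand): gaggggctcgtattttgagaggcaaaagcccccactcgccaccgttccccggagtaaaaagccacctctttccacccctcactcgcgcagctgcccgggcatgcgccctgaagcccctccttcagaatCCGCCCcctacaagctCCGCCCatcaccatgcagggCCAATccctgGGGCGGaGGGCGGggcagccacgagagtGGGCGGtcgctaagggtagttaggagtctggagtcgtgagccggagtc
CIRBP (chr19:1269082-1269331, plus strand): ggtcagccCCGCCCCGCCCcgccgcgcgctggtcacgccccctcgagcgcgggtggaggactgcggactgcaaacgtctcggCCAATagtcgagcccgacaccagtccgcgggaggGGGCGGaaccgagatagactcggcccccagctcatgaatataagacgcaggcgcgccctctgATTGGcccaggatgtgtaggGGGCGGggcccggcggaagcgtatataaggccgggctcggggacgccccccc
The windows held between 63.2% (NEU1) and 79.2% (TUBB2A) G and C, against a median of 58.0% over 35116 promoters of the same length. GGGCGG was found 5 times in TUBB2A and in SERTAD1, 4 times in CIRBP, once in NEU1 and not in SAT1, and it was present in 42.6% of all promoters. CCAAT occurred in NEU1, SAT1, SERTAD1 and CIRBP and in 32.0% of promoters, CACGTG in NEU1 (6.34% of promoters), TATAAA in TUBB2A (10.7%), and TGANNNNGC in NEU1 and SAT1 (35.2%). No motif was common to the 3 genes. RefSeq promoters were at hand for 6 of the 7 genes, with 3 start sites for SQSTM1, and HOXB2 is named only.

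Human counts per well ran from 173553 to 1906446, with a median of 265248 in the first plate column, which held 8 of the 24 DMSO wells and 4 of the 6 JQ1 wells, and 800353 in the other columns. Levels are given as CPM, counts scaled to 1000000 of the TMM-scaled library size, where TMM is edgeR's correction for a skewed minority of genes. Of 12 erythroid markers fixed for the line, 12 had a median above 10 CPM in DMSO wells, and of 6 markers of other blood cells 0 did and 5 had a median of 0. Same-numbered wells of the plates never held identical counts (0 of 96 pairs), and a chi-square test of their counts gave 1.138 to 4.72 for each degree of freedom, so each well was kept as a sample of its own.

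NEU1, the sialidase gene, had 208 and 199 CPM in Panobinostat wells, 188 and 195.8 CPM in Quisinostat wells and 73.1 and 44.2 CPM in Vorinostat wells, against 18.9 to 44.3 CPM (median 29.5) in DMSO wells. All 4 Panobinostat and Quisinostat wells lay far above the highest DMSO well, and 1 of the 2 Vorinostat wells lay just inside the DMSO range. The log2 fold changes were 2.77 ± 0.13 (SE) for Panobinostat (6.83-fold), 2.68 ± 0.12 for Quisinostat (6.41-fold) and 0.97 ± 0.23 for Vorinostat (1.97-fold). In a bulk sample fewer cells of a kind and less RNA per cell cannot be told apart, and CPM is a share of each well's counts. In the order of all 10312 genes from most raised to most lowered, NEU1 stood at place 60 for Panobinostat, 64 for Quisinostat and 569 for Vorinostat. The Vorinostat value was carried more by plate 1, with a log2 fold change of 1.32 there and 0.57 on plate 2.

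SAT1, the polyamine acetyltransferase gene, had 314 and 290.2 CPM under Panobinostat, 230.4 and 301 CPM under Quisinostat and 172 and 216 CPM under Vorinostat, against 39.4 to 97.8 CPM (median 57.8) under DMSO. All 6 pan-HDAC wells were above every DMSO well. Its log2 fold changes were 2.36 ± 0.13 (5.12-fold), 2.18 ± 0.12 (4.53-fold) and 1.72 ± 0.16 (3.30-fold) in the same order of compounds, and at place 122 it was the most raised of the 7 genes under Vorinostat. TUBB2A, the beta-tubulin gene, had 155 and 143 CPM under Panobinostat, 122 and 159.9 CPM under Quisinostat and 47.0 and 104 CPM under Vorinostat, against 17.7 to 57.6 CPM (median 31.9) under DMSO. The plate 1 Vorinostat well was inside the DMSO range and the plate 2 well above it, with log2 fold changes of 0.51 and 1.72. TUBB2A's log2 fold changes over both plates were 2.20 ± 0.15 (4.60-fold), 2.11 ± 0.15 (4.33-fold) and 1.22 ± 0.23 (2.32-fold). The near-identical gene TUBB2B, whose reads the counting may not have separated from those of TUBB2A, had a median of 237 CPM under Panobinostat and 77.2 CPM under DMSO.

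HOXB2, the homeobox gene, ran the other way. It had 3.61 and 8.02 CPM in Panobinostat wells, from 3 and 5 reads, 10.97 and 13.1 CPM in Quisinostat wells and 20.9 and 31.2 CPM in Vorinostat wells, against 51.6 to 109 CPM (median 65.5) in DMSO wells. All 6 pan-HDAC wells lay below every DMSO well. The log2 fold changes were -3.54 ± 0.52 for Panobinostat (11.6-fold lower), -2.44 ± 0.32 for Quisinostat (5.42-fold lower) and -1.33 ± 0.34 for Vorinostat (2.52-fold lower), and HOXB2 stood at place 22, 45 and 345 from the most lowered gene. The opposite-strand gene HOXB-AS1, which overlaps it in the GENCODE annotation, had a median of 2.21 CPM under Panobinostat and 2.92 CPM under DMSO.

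CIRBP, the cold-inducible gene, had 366.1 and 361 CPM under Panobinostat, 208.5 and 187 CPM under Quisinostat and 209 and 189.8 CPM under Vorinostat, against 171.5 to 250.5 CPM (median 205) under DMSO. Both Panobinostat wells were above every DMSO well, and the other 4 wells were inside the DMSO range, so the log2 fold change was 0.82 ± 0.09 for Panobinostat, -0.06 ± 0.10 for Quisinostat and -0.05 ± 0.12 for Vorinostat. SQSTM1, the p62 gene, had 75.9 and 88.2 CPM under Panobinostat, 85.6 and 72.9 CPM under Quisinostat and 78.3 and 96.2 CPM under Vorinostat, against 67.8 to 126.5 CPM (median 105) under DMSO. All 6 wells were inside the DMSO range and below its median, with log2 fold changes of -0.41 ± 0.16, -0.45 ± 0.15 and -0.31 ± 0.20. The low end of that range came from the shallow first plate column, and DMSO wells of the other columns had at least 88.6 CPM. All but the plate 2 Vorinostat well lay below these. Without the first-column wells the log2 fold changes were -0.46, -0.51 and -0.33. With the wells of methyl enzyme compounds as controls in place of DMSO these became 0.06, 0.01 and 0.15, so the direction rests on the choice of controls. SERTAD1 had 41.0 and 60.9 CPM under Panobinostat, 70.2 and 50.03 CPM under Quisinostat and 41.8 and 70.2 CPM under Vorinostat, against 17.4 to 60.8 CPM (median 41.8) under DMSO. Each compound had 1 well within the DMSO range and 1 above it, under Panobinostat by little, and the log2 fold changes were 0.27 ± 0.22, 0.54 ± 0.19 and 0.43 ± 0.27. With the methyl enzyme wells as controls they were 0.85, 1.12 and 1.01, and without plate 2 they were -0.05 under Panobinostat and -0.02 under Vorinostat, so the size rests on the controls and, under these 2 compounds, the direction on plate 2. Genes on the opposite strand overlap SQSTM1 (MGAT4B and MRNIP) and CIRBP (CIRBP-AS1, with a median of 0 CPM), and how the counting treated strand is not given in the sources used here.

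**Figure D1:**
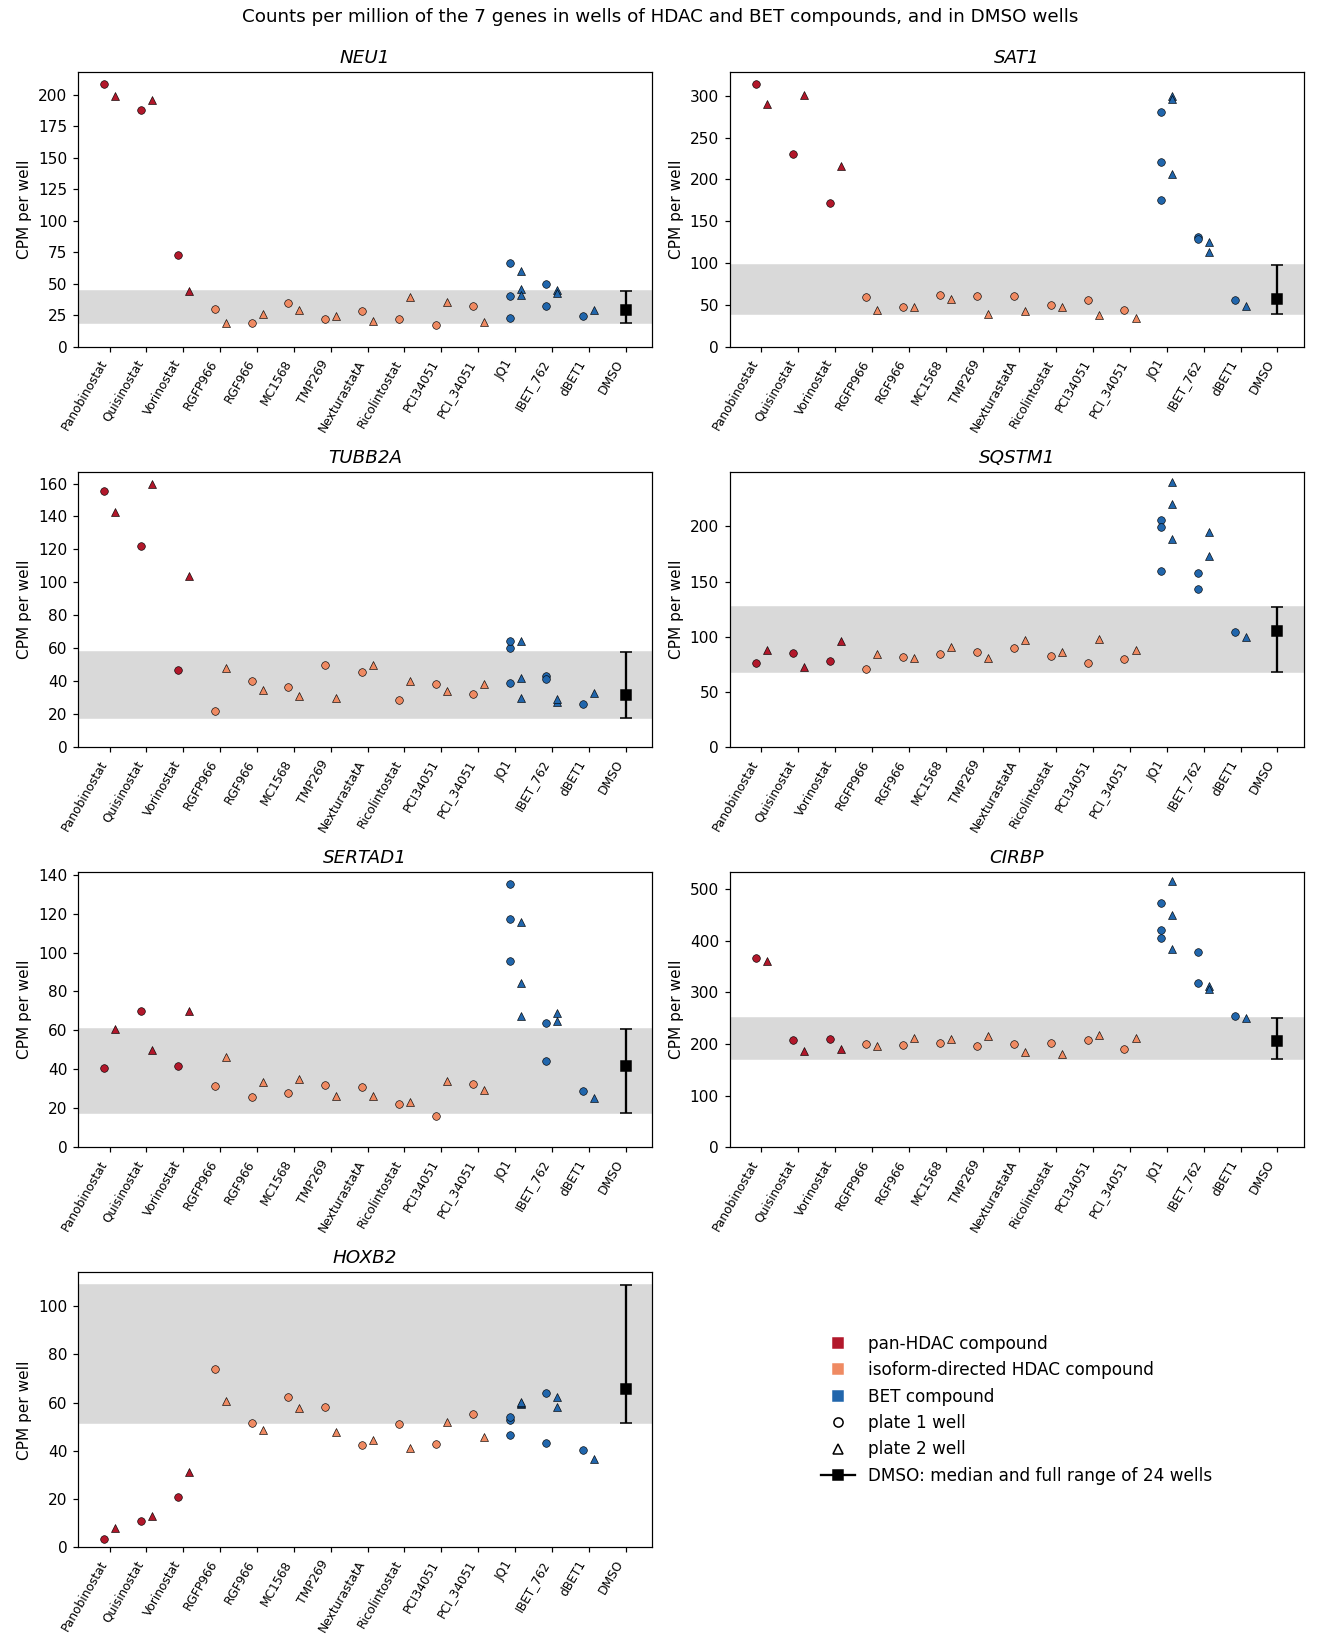
CPM of each gene in every well of the pan-HDAC (red), isoform-directed HDAC (orange) and BET compounds (blue), with DMSO at the right as the median and full range of 24 wells, repeated as the grey band; circles are plate 1 wells and triangles plate 2 wells. NEU1, SAT1 and TUBB2A are high in red wells, apart from 1 Vorinostat well each of NEU1 and TUBB2A inside the grey band. HOXB2 is low in red wells (3.61 to 31.2 CPM). Orange wells stay in or near the grey band, and SQSTM1, SERTAD1 and CIRBP are highest in JQ1 wells.

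The isoform-directed HDAC inhibitors called 0 of 42 gene and compound pairs with edgeR's quasi-likelihood test (adjusted p below 0.05). Whether their contrasts entered the choice of genes is not stated, and they share the DMSO wells. Of all tested genes 0.858% passed over these 6 comparisons, from 0.562% (PCI34051) to 1.59% (NexturastatA), and 12 of the 42 pairs had an unadjusted p under 0.05, 11 lower and 1 higher. DESeq2, the other scalings, the other controls and either plate alone also called 0. For SAT1 the values were 47.4 and 47.4 CPM in RGF966 wells, 59.7 and 44.7 CPM in RGFP966 wells and 60.9 and 43.3 CPM in NexturastatA wells, all within the DMSO range of 39.4 to 97.8 CPM, while PCI_34051 had 44.3 and 35.1 CPM, the second of them below that range. The plate 2 wells of PCI34051 (38.7 CPM) and TMP269 (39.34 CPM) also lay below the DMSO minimum of 39.43 CPM. Over the 8 compounds, RGF966 and Ricolintostat included, SAT1 log2 fold changes ran from -0.57 to 0.01 and the upper end of their 95% intervals reached 0.35. NEU1 ran from -0.39 to 0.11, with intervals up to 0.50. TUBB2A was above 0 under all 8, from 0.07 under MC1568 to 0.55 under NexturastatA, where the wells had 45.4 and 49.9 CPM, and its intervals reached 0.95. HOXB2 ran from -0.60 under NexturastatA (42.3 and 44.6 CPM, both below every DMSO well) to 0.03, with intervals down to -0.98. CIRBP lay between -0.11 and 0.04, SQSTM1 between -0.48 and -0.21, and SERTAD1 between -0.86 and -0.09. With doses unknown, these values are not set against those of the pan-HDAC compounds.

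Ricolintostat, the deepest pair of wells (1603856 and 1906446 human counts), gave 2 calls among the 7 genes, against 2.06% of all genes. SERTAD1 had 22.1 and 23.4 CPM there, against a DMSO median of 41.8 CPM, a log2 fold change of -0.86 (edgeR adjusted p = 0.00359), and HOXB2 had 51.0 and 41.2 CPM, against 65.5 CPM, a log2 fold change of -0.52 (edgeR adjusted p = 0.0246). The SERTAD1 wells were inside the DMSO range, and those of HOXB2 below it. Neither call held when 1 plate was left out (adjusted p of 0.414 to 0.982) or with scaling on the synthetic ERCC RNAs added to each well, under which the values were -0.27 for SERTAD1 and 0.06 for HOXB2. RGF966 gave no call among the 7 genes, where 0.669% of all genes passed.

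Under JQ1, 6 of the 7 genes were called higher, where 14.4% of all genes were called and 7.0% were called higher. Under IBET_762 5 of the 7 were called higher, where 5.09% of all genes were called and 2.74% were called higher. The choice of genes may have used both contrasts, so these counts are a description. SAT1 had 176, 281 and 221 CPM in plate 1 JQ1 wells and 299, 296 and 206.5 CPM in plate 2 JQ1 wells, against 39.4 to 97.8 CPM under DMSO, with no overlap. Its log2 fold change was 2.01 ± 0.10 for JQ1 (4.02-fold) and 1.07 ± 0.11 for IBET_762 (2.102-fold), where the 4 wells had 113 to 131 CPM. NEU1 had 23.4 to 66.2 CPM over the 6 JQ1 wells (median 43.6) and overlapped DMSO, with a log2 fold change of 0.72 ± 0.15, and 0.38 with ERCC scaling. TUBB2A had 29.9 to 64.4 CPM under JQ1, with a log2 fold change of 0.61 ± 0.16, and 0.30 with ERCC scaling. With that scaling the median of all genes under JQ1 was -0.34. The TUBB2A value under JQ1 did not pass the test without plate 1, and the NEU1 values under JQ1 and IBET_762 (0.50 ± 0.15) passed neither without plate 1 nor without plate 2.

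SQSTM1, CIRBP and SERTAD1 were all higher under JQ1. SQSTM1 had 159.8 to 240.6 CPM in JQ1 wells and 143 to 195 CPM in IBET_762 wells, against at most 126.5 CPM under DMSO, and its log2 fold changes were 0.94 ± 0.09 for JQ1 and 0.61 ± 0.09 for IBET_762. CIRBP had 383 to 515 CPM in JQ1 wells and 306 to 377 CPM in IBET_762 wells, against at most 250.5 CPM under DMSO, with log2 fold changes of 1.07 ± 0.06 and 0.67 ± 0.07. Neither gene's JQ1 wells overlapped its DMSO wells. SERTAD1 had 67.3 to 135 CPM in JQ1 wells, all above the DMSO maximum of 60.8 CPM, and 44.5 to 68.8 CPM in IBET_762 wells, of which 1 was inside the DMSO range. Its log2 fold changes were 1.24 ± 0.13 and 0.54 ± 0.14. Under IBET_762 the SERTAD1 call was lost without plate 1, without plate 2 and with ERCC scaling (adjusted p of 0.133, 0.585 and 0.199 by edgeR), and the SQSTM1 call was lost without plate 2 (edgeR adjusted p = 0.234). Since 4 of the 6 JQ1 wells were in the shallow first column, the fit was repeated without that column, and the JQ1 values were then 1.88 for SAT1, 0.99 for SQSTM1, 0.99 for CIRBP and 1.09 for SERTAD1. HOXB2, low under pan-HDAC compounds, had 46.8 to 60.1 CPM under JQ1 and a log2 fold change of -0.24 ± 0.14 that did not pass the test. With ERCC scaling it was -0.57 (edgeR adjusted p = 0.00494).

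The BET degrader dBET1 gave 1 call among the 7 genes, where 0.553% of all genes passed and 0.272% were lower. HOXB2 had 40.3 and 36.8 CPM in dBET1 wells, both below the DMSO minimum of 51.6 CPM, a log2 fold change of -0.77 (edgeR adjusted p = 0.0109, and 0.775 and 0.842 with 1 plate left out). SAT1 had 56.2 and 48.5 CPM and SQSTM1 104 and 99.5 CPM, near the middle of their DMSO wells. The 95% interval of the log2 fold change under dBET1 was -0.52 to 0.18 for SAT1 and -0.35 to 0.17 for SQSTM1. CIRBP had 254 and 249 CPM, 1 well above and 1 just inside the DMSO range, with a log2 fold change of 0.29 (edgeR adjusted p = 0.0825). Both wells were above the DMSO wells outside the first plate column, which had at most 241.6 CPM. Without the first-column wells the value was 0.32 (edgeR adjusted p = 0.0248). With methyl enzyme wells as controls it was 0.26 (edgeR adjusted p = 0.116).

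**Figure D2:**
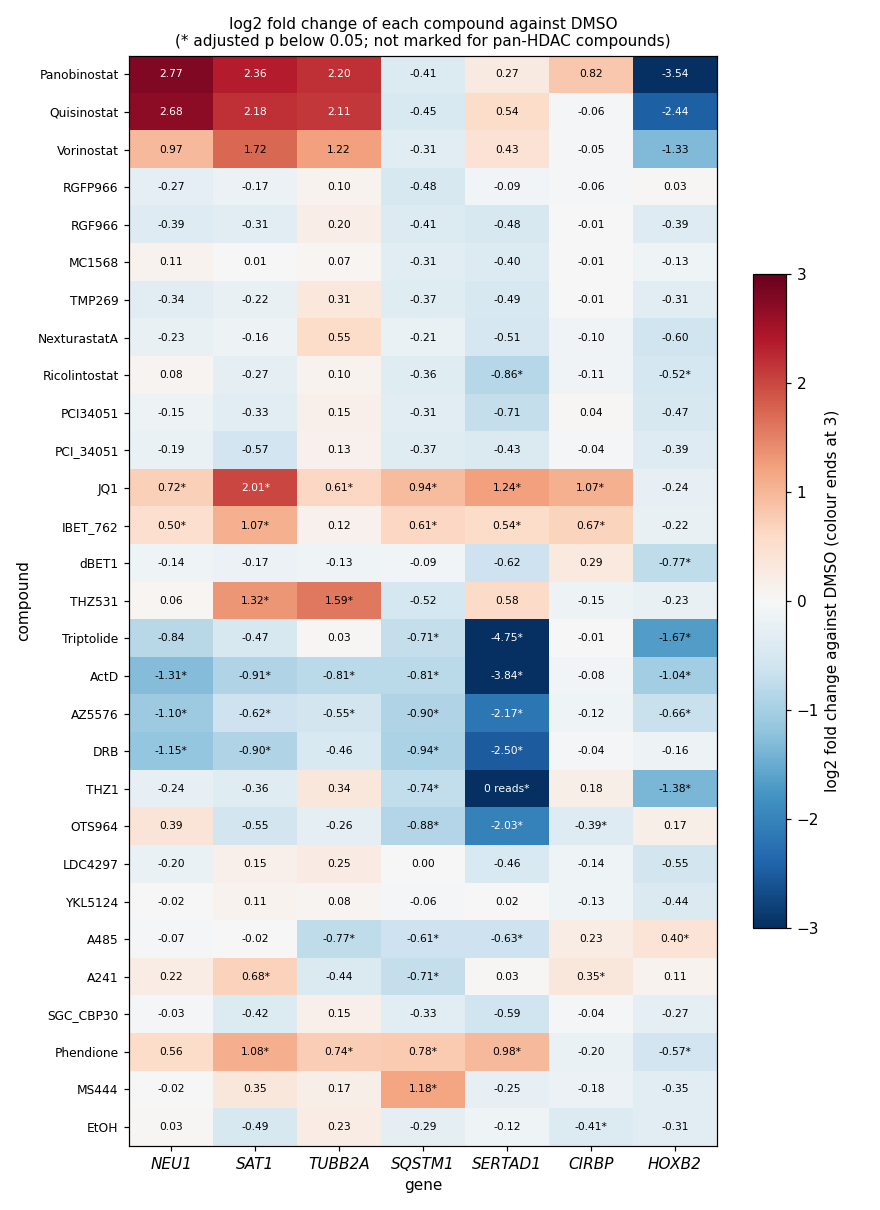
Log2 fold change against DMSO of the 7 genes (columns) under pan-HDAC, isoform-directed HDAC, BET, transcription-blocking, CBP/p300 and some other treatments (lines from top to bottom), with stars where the adjusted p was below 0.05; colours end at 3 and pan-HDAC values carry no stars. The upper 3 lines have high NEU1, SAT1 and TUBB2A and low HOXB2 (-3.54 to -1.33). SQSTM1, SERTAD1 and CIRBP are higher under JQ1 (0.94, 1.24 and 1.07) and IBET_762 (0.61, 0.54 and 0.67). Stars under JQ1 and IBET_762 are a description, as the choice of genes may have used both contrasts.

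The 9 compounds that block transcription include inhibitors of CDK9 (AZ5576), CDK12 and CDK13 (THZ531), CDK7 (THZ1, LDC4297 and YKL5124) and CDK11 (OTS964), and ActD, DRB and Triptolide. Among 63 gene and compound pairs 27 were called, 25 lower and 2 higher, in 7 of the 9 compounds, where over all genes 19.9% of pairs were called, 11.1% lower and 8.8% higher. The share of all genes called was 47.3% for AZ5576, 43.3% for ActD, 28.5% for DRB, 17.1% for OTS964, 15.3% for THZ531, 11.9% for THZ1, 11.4% for Triptolide, 2.85% for YKL5124 and 1.28% for LDC4297, and under AZ5576 and ActD calls were common among all genes. YKL5124 and LDC4297 gave no call among the 7. ERCC scaling moved the median of all genes to -1.03 under ActD, -0.87 under AZ5576 and -0.95 under THZ531 and the number of called pairs to 44, so the values below are relative to the bulk of mRNAs.

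SERTAD1 fell in 6 of these compounds. It had 0 reads in both THZ1 wells, where 26.3 would have been counted at the DMSO rate. A count of 0 allows up to 3 counts over both wells if reads are independent, which would put SERTAD1 at least 8.76-fold lower. Under Triptolide SERTAD1 had 1 read in all, where 30.1 would have been counted, a ratio of 30.1 with a 95% counting interval of 5.40 to 1188. Reads were not collapsed by molecular identifier, so the THZ1 limit is likely too high and the Triptolide interval too narrow. ActD wells had 0 to 6.70 CPM (median 2.102), AZ5576 wells 3.28 to 13.1 CPM, DRB wells 5.46 and 9.32 CPM and OTS964 wells 10.5 and 9.60 CPM, against 17.4 to 60.8 CPM under DMSO, with no overlap. The log2 fold changes were -3.84 for ActD (edgeR adjusted p = 5.25e-20), -2.17 for AZ5576 (edgeR adjusted p = 1.29e-12), -2.50 for DRB (edgeR adjusted p = 3.86e-06) and -2.03 for OTS964 (edgeR adjusted p = 6.66e-05). All 6 calls held with either plate left out and with ERCC scaling.

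SQSTM1 also fell under 6 compounds, by 0.71 to 0.94 on the log2 scale. Its lowest mean was 55.7 CPM, under DRB (60.02 and 51.3 CPM), against a DMSO minimum of 67.8 CPM. With methyl enzyme wells as controls 4 of the 6 calls were lost (DRB, OTS964, THZ1 and Triptolide, with values of -0.48 to -0.25), and the same 4 were lost with 1 plate left out, the DRB call without plate 2 only. HOXB2 fell under Triptolide (26.0 and 14.6 CPM, a log2 fold change of -1.67, edgeR adjusted p = 3.65e-05), THZ1 (29.7 and 21.2 CPM, -1.38), ActD (-1.04) and AZ5576 (-0.66), of which the Triptolide and ActD calls held with either plate left out. NEU1 fell under ActD (-1.31), DRB (-1.15) and AZ5576 (-1.10), and the DRB call was lost without plate 1 (-0.68, edgeR adjusted p = 0.374) and without plate 2 (edgeR adjusted p = 0.0754). ActD wells had 7.42 to 21.8 CPM, against 18.9 to 44.3 CPM under DMSO. CIRBP was near its DMSO level, between -0.15 and 0.18, in 8 of the 9 compounds and fell under OTS964 (-0.39, edgeR adjusted p = 0.0127), where the wells had 165 and 149.7 CPM, a call lost with either plate left out. With ERCC scaling CIRBP was called lower in 7 of the 9.

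SAT1 and TUBB2A rose under THZ531. SAT1 had 160.0 and 134 CPM in THZ531 wells, against at most 97.8 CPM under DMSO, a log2 fold change of 1.32 ± 0.19 (edgeR adjusted p = 1.04e-07). TUBB2A had 73.0 and 125 CPM, against at most 57.6 CPM under DMSO, a log2 fold change of 1.59 ± 0.22 (edgeR adjusted p = 1.99e-07). Neither overlapped DMSO. NEU1 had 28.1 and 34.3 CPM there and a log2 fold change of 0.06 ± 0.33. With ERCC scaling, which put the median gene at -0.95, TUBB2A was at 0.75 (edgeR adjusted p = 0.0144) and SAT1 was at 0.50 (edgeR adjusted p = 0.0632). Without plate 2 the TUBB2A value was 1.12 (edgeR adjusted p = 0.0517). Under ActD and AZ5576 both genes fell, SAT1 by 0.91 and 0.62 and TUBB2A by 0.81 and 0.55 on the log2 scale, and the 2 TUBB2A calls did not hold without plate 1. SAT1 also fell under DRB (-0.90, edgeR adjusted p = 0.008), a call lost with either plate left out.

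**Figure D3:**
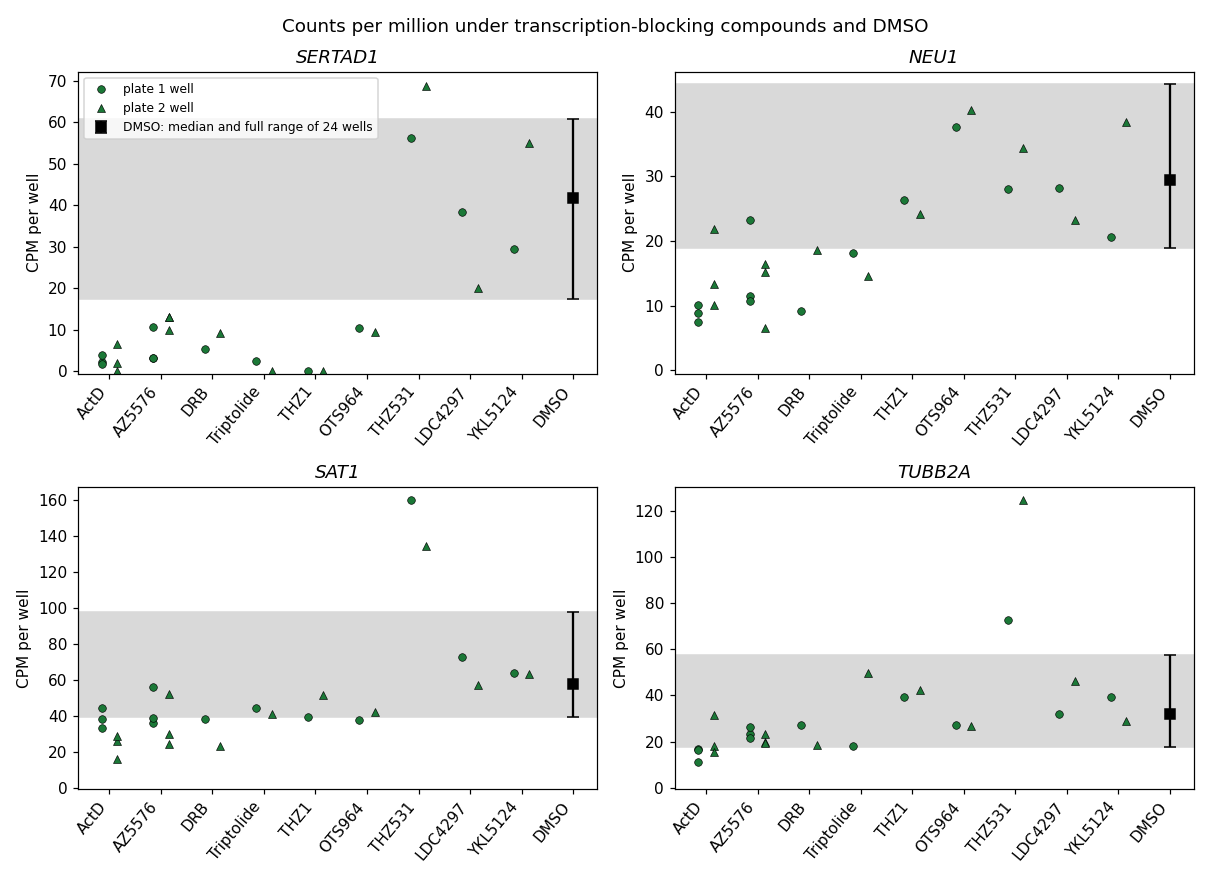
CPM per well of SERTAD1, NEU1, SAT1 and TUBB2A under the 9 transcription-blocking compounds, with DMSO at the right as the median and full range of 24 wells (grey band); circles are plate 1 wells and triangles plate 2 wells. SERTAD1 lies below the band in the 6 leftmost compounds (0 CPM under THZ1), and both wells of SAT1 and of TUBB2A lie above it under THZ531.

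The 19 methyl enzyme compounds gave 8 calls among 133 pairs, all lower, 7 of them SQSTM1 and 1 SERTAD1, where 1.24% of all gene and compound pairs were called and 0.302% were lower. Under the 7 compounds with a call, 1.19% (GSK503) to 2.35% (JIB_04) of all genes were called. The SQSTM1 log2 fold changes ran from -0.82 (JIB_04) to -0.47 (GSK503), and SERTAD1 was at -0.99 under GSK503. None of the 8 calls held without plate 1 or without plate 2, and with ERCC scaling 2 held. With the 10 further methyl enzyme compounds counted in, 11 of 203 pairs were called, all lower, 9 of them SQSTM1, 1 SERTAD1 and 1 NEU1, where 1.32% of all pairs were called and 0.333% were lower. The same 2 genes lay below DMSO nearly everywhere: over the 71 treatments outside the pan-HDAC compounds SQSTM1 was below 0 in 66 (median -0.40) and SERTAD1 in 64 (median -0.51), EtOH included (-0.29 and -0.12). NEU1 was below 0 in 59 (median -0.29), SAT1 in 60 (median -0.29) and HOXB2 in 62 (median -0.24), whereas TUBB2A (31 below, median 0.07) and CIRBP (43 below, median -0.02) were spread about 0. All of these values share the 24 DMSO wells, so they are not independent of each other. Within DMSO, SQSTM1 averaged 88.7 ± 15.1 CPM in the first column (SD, n = 8) and 112 ± 10.2 CPM in the other columns (SD, n = 16). Without the first-column wells the methyl enzyme compounds gave 17 calls.

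**Figure D4:**
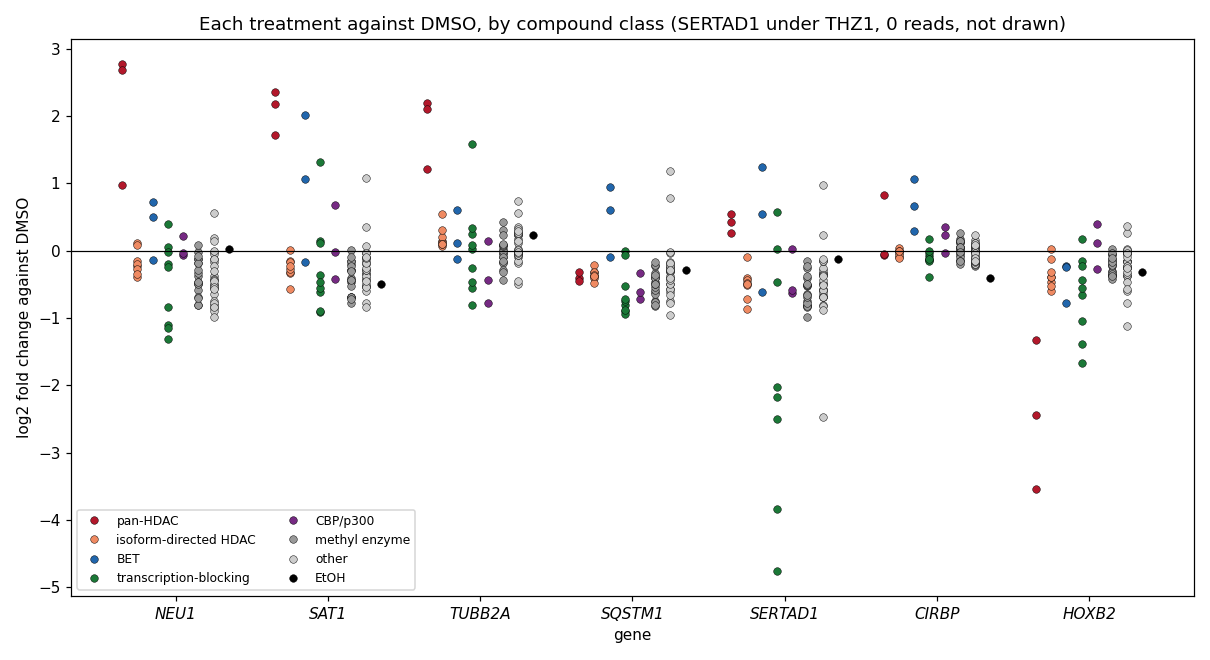
Log2 fold change against DMSO of each gene under each treatment, 1 point per treatment, coloured by compound class from pan-HDAC (left) to EtOH (right) within a gene, RGF966 and Ricolintostat drawn with the isoform-directed HDAC class; SERTAD1 under THZ1, with 0 reads, is not drawn. Most treatments lie below 0 for SQSTM1 (66 of 71 outside the pan-HDAC class) and SERTAD1 (64 of 71), while CIRBP lies between -0.41 and 1.07.

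Among the other 34 treatments 25 of 238 pairs were called, 8 higher and 17 lower, in 10 treatments, where 2.85% of all pairs were called, 1.58% higher and 1.27% lower. Phendione gave 5 calls, where 7.44% of all genes were called. SAT1 had 97.85 and 151.5 CPM in Phendione wells (1.08, edgeR adjusted p = 5.37e-09), SQSTM1 124 and 252.5 CPM (0.78, edgeR adjusted p = 1.79e-07), SERTAD1 56.6 and 109 CPM (0.98, edgeR adjusted p = 1.38e-05) and TUBB2A 36.5 and 73.2 CPM (0.74, edgeR adjusted p = 0.0107). HOXB2 fell by 0.57 on the log2 scale (47.2 and 41.7 CPM), a call lost with either plate left out. For all 4 raised genes the plate 2 well was the higher one, and none was called without plate 2, where the values were 0.70, 0.21, 0.42 and 0.16 in the order above. MS444, an inhibitor of the RNA-binding protein HuR, raised SQSTM1 alone among the 7, to 252 and 238 CPM, against at most 126.5 CPM under DMSO, with a log2 fold change of 1.18 (edgeR adjusted p = 1.09e-16). It called 0.805% of all genes, the SQSTM1 call held with either plate left out and with ERCC scaling, and the mean of 245 CPM was the highest of SQSTM1 in any condition.

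The CBP/p300 compounds A485 and A241 gave 4 and 3 calls, where 4.44% and 5.04% of all genes were called, and SGC_CBP30 gave none (0.204%). These proteins acetylate histones, the reaction that HDACs undo. Under A485 the 6 TUBB2A wells had 9.94 to 27.25 CPM (median 16.9), and the gene fell (-0.77, edgeR adjusted p = 0.0170), while HOXB2 rose to 72.0 to 134 CPM (0.40, edgeR adjusted p = 0.0242). Without the first-column wells, 4 of the 6 A485 wells, neither was called (-0.65 with adjusted p = 0.255 by edgeR and 0.27 with adjusted p = 0.498 by edgeR). SQSTM1 (52.4 to 93.4 CPM, -0.61, edgeR adjusted p = 9.71e-05) and SERTAD1 (20.1 to 40.7 CPM, -0.63, edgeR adjusted p = 0.0349) fell under A485 too, with wells that overlapped DMSO, and with methyl enzyme wells as controls they were at -0.15 and -0.04. Without the first-column wells SQSTM1 was not called under A485 (-0.48, edgeR adjusted p = 0.0545), while SERTAD1 was (-0.86, edgeR adjusted p = 0.0382). Without plate 1 none of the 4 A485 calls held, and without plate 2 only that of SQSTM1 did. NEU1 and SAT1 were at -0.07 and -0.02 under A485. Under A241 SAT1 rose (115 and 73.4 CPM, 0.68, edgeR adjusted p = 0.0162) and CIRBP rose (273 and 253 CPM, 0.35, edgeR adjusted p = 0.0219), while SQSTM1 fell (59.1 and 73.4 CPM, -0.71, edgeR adjusted p = 0.00813), and none of the 3 calls held with 1 plate left out. CPI_360 lowered NEU1 to 18.8 and 12.8 CPM (-0.90, edgeR adjusted p = 0.0422) and SQSTM1 to 47.7 and 79.3 CPM (-0.77, edgeR adjusted p = 0.000996), where 3.31% of all genes were called, and GSK_LSD1_2HCl lowered SQSTM1 (-0.95, edgeR adjusted p = 6.13e-05), where 1.64% were. None of these 3 calls held without plate 1 or without plate 2.

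A159 lowered SERTAD1 to 4.01 and 10.9 CPM (-2.47, edgeR adjusted p = 7.93e-06) and HOXB2 to 16.1 and 45.7 CPM (-1.12, edgeR adjusted p = 0.000401), where 21.1% of all genes were called. The 2 HOXB2 wells stood far apart, and without plate 1 its value was -0.54 (edgeR adjusted p = 0.427). The SERTAD1 value without plate 1 was -1.86 (edgeR adjusted p = 0.06). SQSTM1 was also called lower under A159 (-0.74) and OkadaicAcid (-0.40), and neither call held with 1 plate left out. OkadaicAcid, a phosphatase inhibitor, lowered NEU1 to 18.5 and 16.8 CPM (-0.75, edgeR adjusted p = 0.0141) and HOXB2 to 40.0 and 36.9 CPM (-0.77, edgeR adjusted p = 0.000405), where 30.1% were called. Neither call held without plate 1 or without plate 2 (adjusted p of 0.0524 to 0.34 by edgeR), and with ERCC scaling NEU1 was not called (edgeR adjusted p = 0.0521). EtOH lowered CIRBP to 166 and 144 CPM (-0.41, edgeR adjusted p = 0.0187), its lowest mean in any condition, where 0.785% of all genes were called, and the call did not hold with 1 plate left out.

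In the order of mean levels over the 75 conditions, Panobinostat and Quisinostat were first and second for NEU1 (204 and 192 CPM), SAT1 (302 and 265.8 CPM) and TUBB2A (149.0 and 140.8 CPM) and last and second to last for HOXB2 (5.82 and 12.01 CPM). JQ1 was first for SERTAD1 (103 CPM) and CIRBP (441 CPM). DMSO was 19th for NEU1, 13th for SAT1, 45th for TUBB2A, 8th for SQSTM1, 11th for SERTAD1, 29th for CIRBP and 7th for HOXB2. Most neighbours in these orders could not be told apart: their wells overlapped in 71 to 73 of 74 adjacent pairs per gene. The pairs whose wells did not overlap included Vorinostat over THZ531 for SAT1, Quisinostat over Vorinostat for NEU1, IBET_762 over LDC4297 for SQSTM1, JQ1 over Panobinostat for CIRBP, GSK503 over OTS964 for SERTAD1, and Triptolide over Quisinostat and Quisinostat over Panobinostat for HOXB2. For TUBB2A none was at the top: they were NexturastatA over A366, A366 over THZ1 and OTS964 over SGC_0946.

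Other genes of the same pathways were taken from lists, and up to 4 genes a list are named, those with the smallest p under Panobinostat. The 7 genes themselves are not in the lists. The lists were chosen with earlier results of these data known, so the counts of every list are a description only. Reads of TUBB2B, which is on the tubulin list, may not have been separated from those of TUBB2A. Of 12 tubulin genes tested, TUBB2A itself apart, 7 rose and 0 fell under Panobinostat, where 18.5% of all genes were called, 10.3% higher and 8.19% lower, and the median was 0.44 against -0.01 over all genes. Under Quisinostat 6 rose and 1 fell (20.1% of all genes called, 10.8% higher and 9.31% lower), and under Vorinostat 0 were called (4.59%, 2.65% higher and 1.94% lower). TUBB2B rose to 229 and 245 CPM under Panobinostat, against 57.8 to 118 CPM under DMSO (1.56 ± 0.11), and TUBB4B (0.96 ± 0.09), TUBB4A (1.45 ± 0.13) and TUBA1A (0.56 ± 0.09) rose too. TUBB2B, TUBB4B and TUBB4A also rose under JQ1, by 1.37, 1.61 and 1.42 on the log2 scale. Of 15 polyamine genes, 4 rose and 1 fell under Panobinostat (median 0.17): ODC1, the first enzyme of polyamine synthesis (0.68 ± 0.10), SAT2 (1.37 ± 0.25) and the ornithine decarboxylase antizyme OAZ1 (0.29 ± 0.07) were among those that rose, and EIF5A, the protein that carries hypusine made from spermidine, fell (-0.25 ± 0.07).

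Of 35 lysosomal genes, 6 rose and 2 fell under Panobinostat (median 0.15), a share not far from the 18.5% of all genes called. Under Quisinostat 9 rose and 3 fell, a larger share than the 20.1% of all genes called (10.8% higher and 9.31% lower). PSAP, the saposin precursor, had 218 and 249 CPM under Panobinostat, against 109.5 to 147 CPM under DMSO (0.87 ± 0.10), and also rose under Vorinostat (0.56 ± 0.13). FUCA1, a lysosomal fucosidase (1.82 ± 0.31), the channel gene MCOLN1 (1.82 ± 0.37) and LAMP2 (0.97 ± 0.24) rose under Panobinostat. Of 30 autophagy genes 9 rose and 1 fell under Panobinostat (median 0.25), where 10.3% of all genes rose and 8.19% fell. Among those that rose were ATG2A (37.3 and 81.8 CPM, against 4.73 to 34.9 CPM under DMSO, 2.01 ± 0.21), ATG101 (1.13 ± 0.16), the mitophagy receptor gene BNIP3L (1.38 ± 0.25) and GABARAPL2 (0.55 ± 0.11), while SQSTM1, the cargo receptor, was not higher. ATG2A also rose under Quisinostat (2.08) and Vorinostat (1.40).

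The list of NRF2 targets and regulators, to which SQSTM1 is tied because p62 binds KEAP1, had 5 of 19 higher and 2 lower under Panobinostat (median 0.11), where 18.5% of all genes were called, and 3 higher and 4 lower under Quisinostat (median -0.02), where 20.1% were. KEAP1, the adaptor that marks NRF2 for degradation, had 12.04 and 16.03 CPM under Panobinostat, 11.96 and 17.55 CPM under Quisinostat and 18.2 and 20.9 CPM under Vorinostat, against 44.8 to 81.9 CPM under DMSO. Its log2 fold changes were -2.12 ± 0.30, -2.03 ± 0.26 and -1.63 ± 0.35, and -1.34 ± 0.18 under JQ1, and all 4 passed edgeR's test. NFE2L2, the gene of NRF2 itself, fell under Panobinostat (-1.45 ± 0.41) and Quisinostat (-1.77 ± 0.41), and PRDX1 (0.37 ± 0.07) rose under Panobinostat.

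Of 16 tested genes on the list of SERTAD, CDK4 inhibitor and E2F genes, 1 rose and 1 fell under Panobinostat (median -0.13), a smaller share than the 18.5% of all genes called. The CDK4 and CDK6 inhibitor gene CDKN2D rose to 22.45 and 32.5 CPM, against 0 to 18.9 CPM under DMSO (2.08 ± 0.31), and CDCA4, a SERTAD relative, fell (-1.08 ± 0.29). Of 7 genes on the list made for CIRBP, not all of them cold-inducible, 1 rose (HSPA8, 0.46 ± 0.09) and 1 fell (SRSF5, -0.88 ± 0.23). Of 43 HOX cluster genes and cofactors listed, 7 had enough reads to be tested beside HOXB2, and 4 of them fell and 0 rose under Panobinostat (median -1.36): HOXB4 (-1.41 ± 0.46), HOXB3 (-2.16 ± 0.82), HOXB9 (-1.08 ± 0.45) and the cofactor gene PBX2 (-1.42 ± 0.62). The HOXB4 wells had 4.81 and 8.43 CPM under Panobinostat and 5.44 and 5.49 CPM under Quisinostat, against 9.64 to 34.9 CPM under DMSO. The Panobinostat wells of HOXB3 (0 and 4.81 CPM, against 4.08 to 24.3 CPM) overlapped DMSO. So did those of HOXB9 (6.02 and 9.62 CPM, against 3.2 to 23.2 CPM) and PBX2 (2.41 and 6.41 CPM, against 5.895 to 24.45 CPM). Over all genes 8.19% fell under Panobinostat. Under JQ1 5 of the 7 fell, where 14.4% of all genes were called and 7.4% were lower, among them HOXB4, HOXB3 and HOXB9 (-0.97, -1.33 and -0.83). Among 27 genes of HDACs and their complexes 4 rose and 1 fell under Panobinostat, the same share as the 18.5% of all genes called, with HDAC3 (0.89 ± 0.12), HDAC5 (0.94 ± 0.15) and HDAC11 (2.57 ± 0.43) higher and HDAC7 (-2.20 ± 0.67) lower.

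The pattern of each gene over the 75 conditions was set beside those of 3627 well-expressed genes by Pearson's r of mean log2 CPM, which shares libraries and the DMSO wells and is a description only. SAT1 was the gene most like NEU1 (r = 0.805), followed by IDI1 and ELOF1, and IDI1, ARL6IP1 and TUBB2B were most like SAT1 (0.801, 0.796 and 0.785). NHERF1, ELOF1 and JPT1 were most like TUBB2A (0.714, 0.702 and 0.701), and SNX5, YDJC and NUP62 most like HOXB2 (0.711, 0.701 and 0.699). Without the pan-HDAC compounds, whose values are taken to have chosen the genes, these were 0.27, 0.302 and 0.334 for TUBB2A. They were 0.561, 0.466 and 0.514 for HOXB2 and 0.626, 0.585 and 0.664 for SAT1. Over the same 72 conditions r was 0.615 for NEU1 with SAT1, 0.34 rather than 0.72 for NEU1 with TUBB2A, and 0.23 rather than -0.54 for NEU1 with HOXB2. SERTAD1 was most like the heat shock gene DNAJB1 (r = 0.848, and 0.867 without pan-HDAC compounds), then NGDN (0.793). The conditions behind these values include THZ1, with 0 SERTAD1 reads. By Spearman's rho only 3 of the 21 most alike genes of the 7 were kept. SQSTM1 was most like HSPA8, CKS2 and SLC1A5 (0.615, 0.608 and 0.598). For CIRBP the closest were ENSG00000182217 (0.67) and ENSG00000183558 (0.648), which the name tables used here do not name, and the histone gene H2BC11 (0.634), which had a log2 fold change of 1.52 under JQ1. Among the 7 genes themselves, without pan-HDAC compounds, the highest values were 0.62 for SERTAD1 with HOXB2 and for NEU1 with SAT1 and 0.60 for SAT1 with SQSTM1.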

How the data were processed

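MAC-seq libraries of 192 wells, 96 on each of 2 plates, were analysed from the deposited tables. The values the authors deposited are expected counts by type, because 1 summary line is fractional, and all gene lines hold whole read counts that are not collapsed by molecular identifier (1.63 to 3.53 reads per identifier), so counting intervals cover counting error only. The submitters' processing notes name R 4.0.2, cutadapt 2.1, FastQC 0.11.6 and bcl2fastq 2.17.1.14 beside the GRCh37 build. The aligner and the counter were not given in the sources used here. All 6 summary lines were left out, and 92 ERCC lines were used only for scaling.

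All wells were fitted together, treatment and plate being the additive terms of a negative binomial model, with edgeR 4.0.16 in R 4.3.3 (TMM scaling, 10312 genes kept by its expression filter). Each of 74 treatments was tested against 24 DMSO wells by the quasi-likelihood test, with Benjamini-Hochberg adjustment over all tested genes and a threshold of 0.05. The plate, which the labels give as the replicate, served as the pairing block. The test was run on simulated data for Panobinostat (10085 genes), where 52% of 100 genes changed 2-fold and 84.5% of 97 changed 4-fold were recovered with 3 false calls. Every simulated gene had the same fixed dispersion, higher than the common dispersion of 0.00451 in the fit. These rates hold for that setting and are not those of the real data. DESeq2 1.42.0, ERCC scaling, library size alone, no expression filter, no plate term, each plate left out, wells outside the first column, and methyl enzyme wells as controls were the alternatives.

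The 7 genes and the pathway lists were chosen with earlier results of these data known. Named are the 7 genes, up to 4 called genes per list by the smallest p, the 3 most alike genes of each, and called compounds. A few genes that this rule names are not reported here. For SQSTM1 and SERTAD1 more than 5 lowering compounds are named, a choice made after their values were seen. The classes of RGF966, Ricolintostat and 10 further methyl enzyme compounds were also changed, as alternatives, after the data were seen.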

Additional observations from a re-analysis of the deposited data

Results flagged for a closer look

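Among 42 groups of 4 to 10 wells, 4 held a well that stood apart from the others by Dixon's test, and chance gives about 1 in 20. NEU1 had 14.52 CPM in the plate 2, column 3 well of GSK503, a well of 348201 human counts, against 26.03 to 29.82 CPM in the other 3. SQSTM1 had 99.45 CPM in the plate 1, column 11 well of GSK503, against 63.9 to 67.76 CPM in the other 3. SERTAD1 had 44.48 CPM in the plate 1, column 8 well of IBET_762, against 63.85 to 68.84 CPM in the other 3. CIRBP had 377.4 CPM in the plate 1, column 6 well of IBET_762, against 306.1 to 318 CPM in the other 3, all of them above every DMSO well.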

How the results depend on the processing

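The number of pan-HDAC values of at least 1 in size on the log2 scale, 11 of 21, was 11 to 14 under every alternative run. The calls outside the pan-HDAC compounds, counted next, include 6 under JQ1 and 5 under IBET_762, whose contrasts may have chosen the genes. Of 72 calls outside the pan-HDAC compounds, 22 were called with either plate left out, where a 2-well compound keeps 1 well that is assumed to vary like the others. With 1 plate left out the calls were 7 and 7 for BET (12 as reported), 17 and 17 for transcription-blocking (27), 0 and 0 for methyl enzyme (8) and 5 and 4 for the other compounds (25), and the list calls 21 and 22 for Panobinostat (50), 22 and 19 for Quisinostat (56) and 2 and 0 for Vorinostat (10). ERCC scaling gave 44 calls for transcription-blocking and 2 for methyl enzyme compounds, and 35 and 2 list calls for Quisinostat and Vorinostat. It moved all calls higher and lower to 503 and 789 under Panobinostat (1061 and 845 as reported), 104 and 140 under Vorinostat (273 and 200) and 179 and 2672 under JQ1 (722 and 763). With no expression filter Vorinostat had 2 list calls, without first-column wells the methyl enzyme compounds had 17 calls, and with methyl enzyme wells as controls the other compounds had 16. Counting RGF966 and Ricolintostat as isoform-directed gave 2 calls. Counting 10 more compounds as methyl enzyme compounds gave 11 calls there and 22 for the others. Without the replicate block the calls were 0, 12, 27, 8 and 23 for isoform-directed, BET, transcription-blocking, methyl enzyme and other compounds and 49, 50 and 9 for the lists. With methyl enzyme wells as controls SQSTM1 turned to 0.06 under OkadaicAcid and 0.01 under Quisinostat, and with ERCC scaling HOXB2 turned to 0.06 under Ricolintostat. Of the 21 most alike genes 3 were kept by Spearman's rho and 7 without pan-HDAC compounds. The cause of these differences was not tested. Depth limits genes of low level, such as HOXB2 under Panobinostat, with 3 and 5 reads.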
